A study of Mus musculus with 6 samples.

Results

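The Dlk1-Dio3 cluster is an imprinted stretch of mouse chromosome 12 that runs from the protein-coding gene Dlk1 through the non-coding RNA genes Meg3, Rian and Mirg, the retrotransposon-derived gene Rtl1 and a large set of microRNA genes to Dio3. Its CpGs were taken by position, from 5 kb before Dlk1 to 5 kb after Dio3 (chr12:109447823-110286097, GRCm38/mm10, 838 kb), where each of 3 cell types had at least 10 reads with the 2 replicates summed. That gave 545 member CpGs of 1106981 compared across the genome. The rule reads position and depth. The window holds 10513 CpGs in the reference genome, of which 693 had a read in any library, so the members were 5.18% of them.

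Reduced representation bisulfite sequencing, which reads DNA methylation in fragments that begin and end at CCGG sites cut by MspI, had been run on 6 libraries, 2 from each of 3 mouse cell types. The question behind the comparison is how the methylomes of induced pluripotent stem cells (iPSCs) made in 2 ways differ from that of embryonic stem cells. The libraries summed to 75077465 and 53694199 reads over CpGs for mESCs, 91533371 and 84792206 for C-iPSCs, and 96534037 and 94215636 for 4F-iPSCs. Pairs of values are replicates 1 and 2 here and below, and unlabelled values follow this order of the cell types. Median depth at the members was, in this order, 51 and 39, 62 and 53, and 63 and 60 reads, and 479 members reached 10 reads in every library.

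The mESCs were the male line E14 at passage 20 to 30. Both kinds of iPSCs came from OG2 mouse embryonic fibroblasts, were male and were taken at passage 5 to 10. C-iPSCs were made chemically, with VPA, CHIR99021, RepSox, tranylcypromine, Forskolin, AM580, EPZ004777 and bFGF at first. DZNep, 5-Aza-2′-deoxycytidine and SGC0946 were then added, in a medium for which the study's methods do not list EPZ004777, and 2i and LIF came last. 4F-iPSCs carried retroviral Oct4, Sox2, Klf4 and c-Myc. All were kept in serum with LIF and the 2i inhibitors CHIR99021 and PD0325901, on mitomycin C-treated fibroblast feeders that were removed on gelatin before collection. The study's methods name gelatin-coated plates for all of them. The labels do not give the number of clones and do not say whether replicates came from separate cultures, so p-values here speak of these libraries only. Strain background and passage cannot be told apart from cell type in comparisons with mESCs, and no fibroblast library was compared.

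As background, imprinted genes are expressed from a single parental chromosome, and the mark that separates the chromosomes is DNA methylation at a few control regions. In this cluster the control region is the IG-DMR, between Dlk1 and Meg3, which is methylated on the paternal chromosome. Dlk1, Rtl1 and Dio3 are expressed from the paternal chromosome, and Meg3, Rian, Mirg and the microRNAs from the maternal. A methylation level near the middle of the scale at such a region is what methylation of a single parental chromosome gives. These reads were not assigned to parental chromosomes, and RNA was not measured in these libraries.

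These 6 stretches of the reference genome show what was measured at low, middle and high levels. Each is the + strand of GRCm38/mm10 written 5′ to 3′, and capitals mark the CpGs that are members. The first is the run of CpGs nearest the IG-DMR amplicon (chr12:109526638-109526760), then a shorter run before it (chr12:109525702-109525801), the start of Meg3 (chr12:109540891-109541080) and an intron of the non-coding gene Gm34081 (chr12:109500380-109500553). Beside them come the Mir433 hairpin with 1 base more (chr12:109591715-109591839), highly methylated in every library and higher in both kinds of iPSC than in mESCs, and the CpG-rich start of Dio3 (chr12:110279068-110279187), nearly unmethylated in every library. The shorter run and the intron were chosen after their values were seen.

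IG-DMR block: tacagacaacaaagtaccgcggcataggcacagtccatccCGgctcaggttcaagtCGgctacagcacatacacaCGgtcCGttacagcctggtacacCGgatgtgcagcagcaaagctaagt

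upstream run: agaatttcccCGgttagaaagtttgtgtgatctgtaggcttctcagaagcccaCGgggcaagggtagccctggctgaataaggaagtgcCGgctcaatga

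Meg3 promoter: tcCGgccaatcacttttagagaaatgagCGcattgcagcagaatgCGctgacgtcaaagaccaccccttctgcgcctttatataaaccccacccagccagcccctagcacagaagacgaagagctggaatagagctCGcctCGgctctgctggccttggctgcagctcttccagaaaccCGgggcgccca

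Gm34081 intron: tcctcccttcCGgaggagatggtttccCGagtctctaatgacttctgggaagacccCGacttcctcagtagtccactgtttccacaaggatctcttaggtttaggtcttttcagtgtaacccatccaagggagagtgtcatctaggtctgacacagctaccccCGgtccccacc

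Mir433 hairpin: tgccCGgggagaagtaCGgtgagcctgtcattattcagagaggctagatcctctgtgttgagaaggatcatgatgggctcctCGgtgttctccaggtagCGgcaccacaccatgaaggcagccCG

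Dio3 start: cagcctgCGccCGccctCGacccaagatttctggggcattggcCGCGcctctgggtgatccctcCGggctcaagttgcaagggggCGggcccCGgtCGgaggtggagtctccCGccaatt

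The hexamer TGCCGC, which the imprint-maintaining zinc finger protein ZFP57 binds when methylated, was searched on both strands. Among the printed stretches it lies once beside the CpGs of the IG-DMR block (chr12:109526656-109526661) and once in the Mir433 hairpin (chr12:109591813-109591818), both times on the - strand. Among windows of 300 bp centred on runs of measured CpGs, 326 of 1694 on chromosome 12 held it (19.2%), and 6 of 29 in the cluster (20.7%). A match is a description of the letters, not of a bound site.

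Across the 479 members read at least 10 times in every library, mean methylation was 31.9 and 35.2% for mESCs, 36.8 and 43.5% for C-iPSCs and 49.7 and 51.0% for 4F-iPSCs. The 3 cell types did not overlap, mESCs were lowest and 4F-iPSCs highest. Over all 957681 such CpGs of the genome, the means stood in the same order, at 20.1 and 21.9%, 25.2 and 29.6%, and 31.7 and 33.2%. The cluster mean was 6.58 points higher in C-iPSCs than in mESCs (genome 6.41), 16.8 points higher in 4F-iPSCs than in mESCs (genome 11.5) and 10.2 points higher in 4F-iPSCs than C-iPSCs (genome 5.07). An exact 2-sided permutation test gave p = 0.333 each time, the smallest p that 2 libraries against 2 allow. The 6.58 points became 3.21 without C-iPSC replicate 2 and 9.95 without C-iPSC replicate 1. The 3 comparisons use each cell type in 2 of them, so they share libraries.

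High levels at single CpGs were rarest in mESCs and most frequent in 4F-iPSCs. Of the 545 members, 26 reached a level of 80% for mESCs, 99 for C-iPSCs and 222 for 4F-iPSCs, with the replicates summed. Over all 1106981 compared CpGs the counts were 29535, 138256 and 273396, in the same order, so the order is the genome's as well. Members under 30% numbered 269, 256 and 221. The low members were less different in number between the cell types than the high ones. In Dlk1, 43 of 43 members were under 30% in each cell type, and in Dio3os and Dio3 92 of 94 were.

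**Figure D1:**
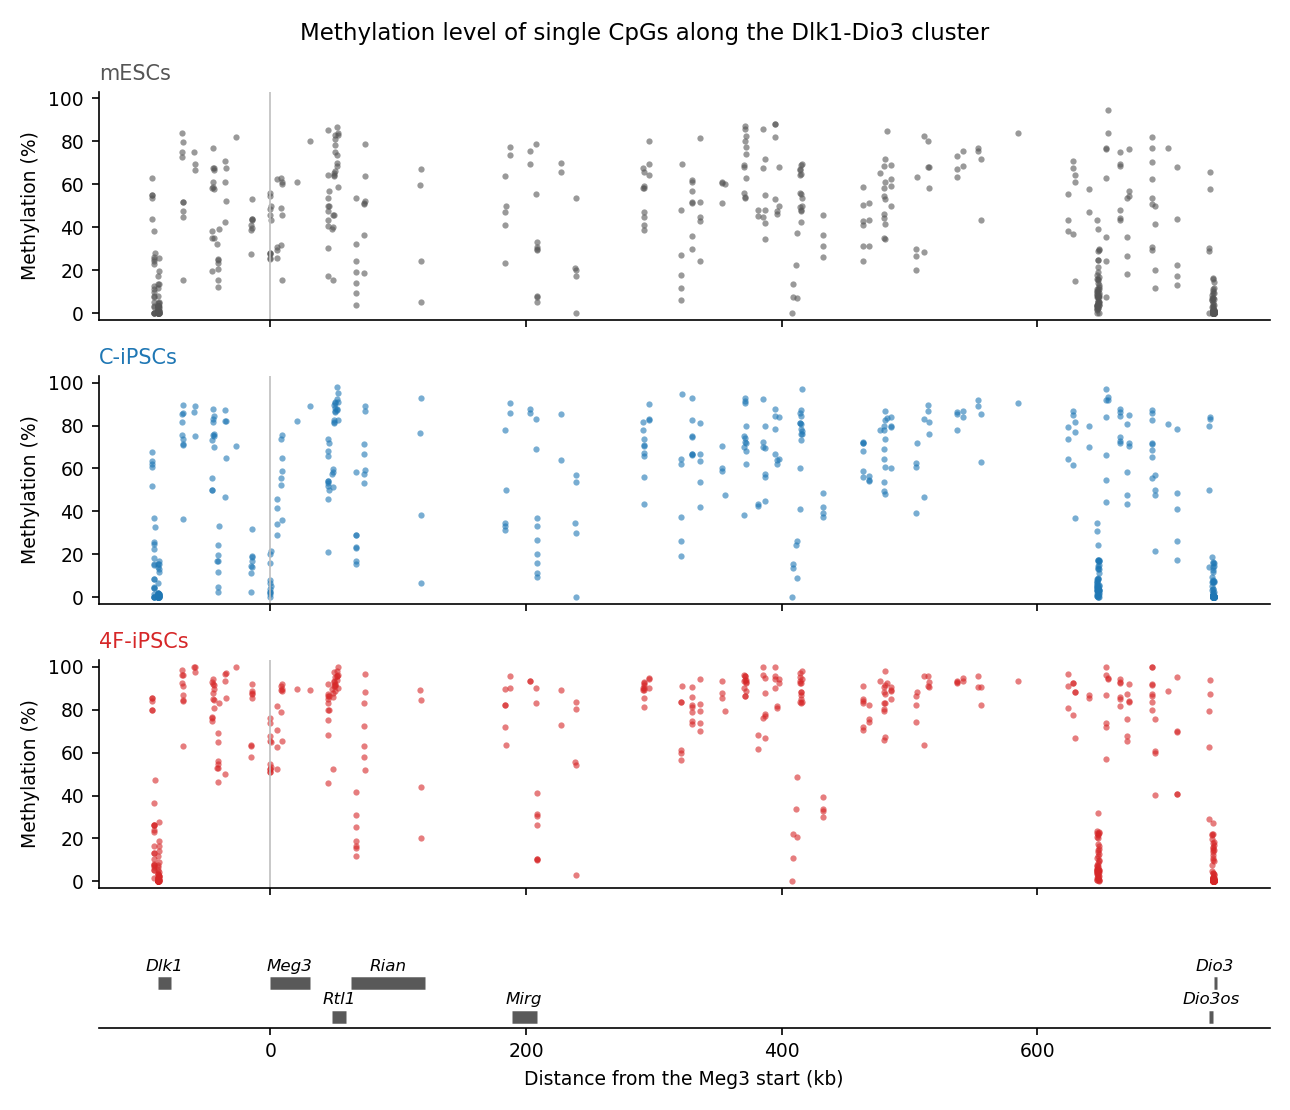
Methylation level of each member CpG in percent (vertical axis, replicates summed) against distance from the Meg3 start in kb, with 1 panel for each cell type and bars for the genes. Levels near 0 mark the starts of Dlk1 and Dio3 in every panel, and between them the 4F-iPSC levels gather near the top.

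A CpG was called different between 2 cell types where Fisher's exact test on summed reads gave an unadjusted p under 0.05 and the levels differed by over 33.3 points, the rule the study states. In 4F-iPSCs against mESCs, 107 members were called higher (19.6%), against a background of 14.2% of all compared CpGs. None was lower by this test, 0 of 545, where the background was 0.0331% and 7 members were lower at unadjusted p alone. In 4F-iPSCs against C-iPSCs, 39 members were higher (7.16%, background 1.33%) and 0 lower (background 0.0281%), with 2 lower at unadjusted p alone by Fisher's exact test. In C-iPSCs against mESCs, 15 members were higher (2.75%), a share near the background of 2.87% and so no result about the cluster, and 5 were lower (0.917%, background 0.0363%). Those 5 lower CpGs, named after their values were seen, all lay within 1 kb of the Meg3 start, at 109540591, 109540637, 109540644, 109540893 and 109541806.

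Fisher's exact test on summed reads does not use the spread between replicates. A quasi-binomial model over the libraries allows for it with a dispersion taken from replicates over the genome, so that the spread at the CpG itself hardly enters. Its calls need the same difference, and p-values are adjusted over all CpGs tested. It called 100 members higher in 4F-iPSCs than in mESCs (background 13.1%) and 27 higher than in C-iPSCs (background 0.611%). No member was lower in these 2 comparisons with the quasi-binomial model (0 and 0; backgrounds 0.0248% and 0.0141%), and 2 and 0 were at unadjusted p. In C-iPSCs against mESCs the model called 6 higher (background 1.48%) and 4 lower (background 0.0113%). The lower CpG it did not call, 109540893, was covered by 24 reads in mESCs and 16 in C-iPSCs with the replicates summed.

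Single libraries moved the smaller counts. The CpG counts with a library left out were taken in the window only and have no background beside them. The 15 CpGs higher in C-iPSCs than in mESCs were 8 without mESC replicate 1, 29 without mESC replicate 2, 34 when C-iPSC replicate 1 was left out and 8 without C-iPSC replicate 2. The 5 lower CpGs were 3 without mESC replicate 2 and 3 without C-iPSC replicate 1. The 39 CpGs higher in 4F-iPSCs than C-iPSCs were 67 without C-iPSC replicate 2. In 4F-iPSCs against mESCs, the count of lower CpGs became 1 without mESC replicate 2 and 1 without 4F-iPSC replicate 2. Beside these values, the C-iPSC replicates differed in mean level by more than those of the other cell types did, in the cluster as in the genome, and the part of this in the counts was not tested.

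By place, most CpGs higher in 4F-iPSCs than C-iPSCs lay around Meg3. Of the 39, 22 lay between Dlk1 and Meg3 and 7 in Meg3, which hold 52 and 17 members (42.3 and 41.2%). Another 7 lay between Mirg and Dio3os, which holds 255 (2.75%, background 1.33%). The other 3 lay between Rian and Mirg, which holds 7 (42.9%), and the quasi-binomial model called 0 of them. Of the 107 CpGs higher in 4F-iPSCs than in mESCs, 20 lay between Dlk1 and Meg3 (38.5%), 5 in Meg3 (29.4%) and 9 between Meg3 and Rian (28.1%). Between Rian and Mirg there were 2 (28.6%) and between Mirg and Dio3os 68 (26.7%), against a background of 14.2%. This share was largest between Dlk1 and Meg3. Dlk1 and Mirg had no call in any comparison.

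The largest single differences were of 2 kinds. The 3 CpGs that differed most between 4F-iPSCs and C-iPSCs lay side by side in the IG-DMR block, at 109526718, 109526713 and 109526694, with differences of 73.3, 71.0 and 70.9 points. At the first, the level was 43.8% of 178 reads in mESCs, 18.8% of 272 reads in C-iPSCs and 92.1% of 315 reads in 4F-iPSCs (Fisher's exact p = 6.45e-80, quasi-binomial adjusted p = 1.35e-13). The CpGs that differed most from mESCs were scattered and shallow. At 109862053, between Mirg and Dio3os, the level was 11.8% of 17 reads in mESCs, 64.3% of 14 reads in C-iPSCs and 83.3% of 30 reads in 4F-iPSCs. The quasi-binomial model called its difference of 71.6 points in 4F-iPSCs (adjusted p = 0.00237) and not that of 52.5 points in C-iPSCs (adjusted p = 0.328). The others of this kind were 109779833 and 109724263 in 4F-iPSCs, 63.3 and 58.5 points higher than in mESCs, 110275309 in C-iPSCs, 50.8 points higher, and 109540893 in C-iPSCs, where the level fell by 45.8 points. The model called neither of the last 2 (adjusted p = 0.314 and 0.172), and 110275309 had 15 reads in C-iPSCs, 2 of them in replicate 2.

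Dlk1, which encodes a Notch-like transmembrane protein of growing tissues, was nearly unmethylated at its start in every library. A run of 39 CpGs there (chr12:109453344-109453968) averaged 3.91 and 3.54% for mESCs, 1.80 and 2.49% for C-iPSCs and 2.77 and 3.56% for 4F-iPSCs. Both C-iPSC libraries were lowest and the other libraries overlapped, and no comparison passed the limma test described below (lowest adjusted p 0.364). The 23 members before Dlk1 were mixed. Of 2 runs there, the run 92.6 kb before the Meg3 start stood at 54.6 and 52.3% for mESCs, 56.0 and 66.7% for C-iPSCs and 80.004 and 87.1% for 4F-iPSCs, and the run 91.1 kb before it was at 24.8% or less in every library. At the former, 4F-iPSCs were above every other library and rose against mESCs by 30.1 points (adjusted p = 7.70e-06). Its rise of 22.2 points against C-iPSCs (adjusted p = 0.0142) was lost without C-iPSC replicate 1 (adjusted p = 0.114), 4F-iPSC replicate 1 (0.118) or 4F-iPSC replicate 2 (0.564).

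The test across regions used runs of at least 5 CpGs, each read at least 10 times in every library and no gap over 300 bp. In each library its level is the mean over its CpGs, and limma compared the cell types over all 43041 such runs of the genome, with adjusted p under 0.05 as a call. The prior of this fit had unlimited degrees of freedom, so the error of a run came from the trend over all runs of the genome and not from its own replicates. The window held 29 runs with 308 CpGs. In 4F-iPSCs against mESCs, 20 of 29 were higher (background 54.8%) and 0 lower (background 0.283%; 0 also at unadjusted p with limma). In C-iPSCs against mESCs, 8 were higher (background 33.6%) and 2 lower (background 0.244%). In 4F-iPSCs against C-iPSCs, 10 were higher (background 8.24%) and 0 lower (background 0.163%; 0 also at unadjusted p with limma). The median difference over the 29 runs was 28, 8.37 and 8.26 points in the 3 comparisons. The share higher in 4F-iPSCs than in mESCs, 69.0%, was not far from its background of 54.8%. The share higher in C-iPSCs than in mESCs was under the background and is no result about the cluster.

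How firmly these counts stood differed by comparison. Of the 20 runs higher in 4F-iPSCs than in mESCs, 15 stayed called whichever library was left out in fits that assume the error holds for the lone library of a cell type. Of the 10 higher in 4F-iPSCs than C-iPSCs, only 2 did, the IG-DMR block and the Meg3 promoter block. The count of 10 was 3 without C-iPSC replicate 1, 3 without 4F-iPSC replicate 1 and 2 without 4F-iPSC replicate 2. The 8 runs higher in C-iPSCs than in mESCs were 2 without mESC replicate 1, 15 when C-iPSC replicate 1 was left out, 4 without C-iPSC replicate 2, 5 without 4F-iPSC replicate 1 and 5 without 4F-iPSC replicate 2, and the 2 lower were 1 without mESC replicate 1, 4F-iPSC replicate 1 or 4F-iPSC replicate 2. No called difference changed sign.

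Because the spread at a run did not enter that fit, an alternative chosen after seeing the data took the error from each run alone, with 3 residual degrees of freedom. It called 10 of the 29 higher in 4F-iPSCs than in mESCs, all among the 20, a share near the background of 32%. It called 0 higher and 0 lower in C-iPSCs than in mESCs, and 0 higher and 0 lower in 4F-iPSCs than C-iPSCs. Over the genome it likewise called 0 of 43041 runs higher in either of these 2 comparisons. At unadjusted p, 5 of the 8 runs higher and 2 of the 2 lower in C-iPSCs than in mESCs passed, and 6 of the 10 higher in 4F-iPSCs than C-iPSCs. The calls of single runs below are those of the fit with the trend.

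**Figure D2:**
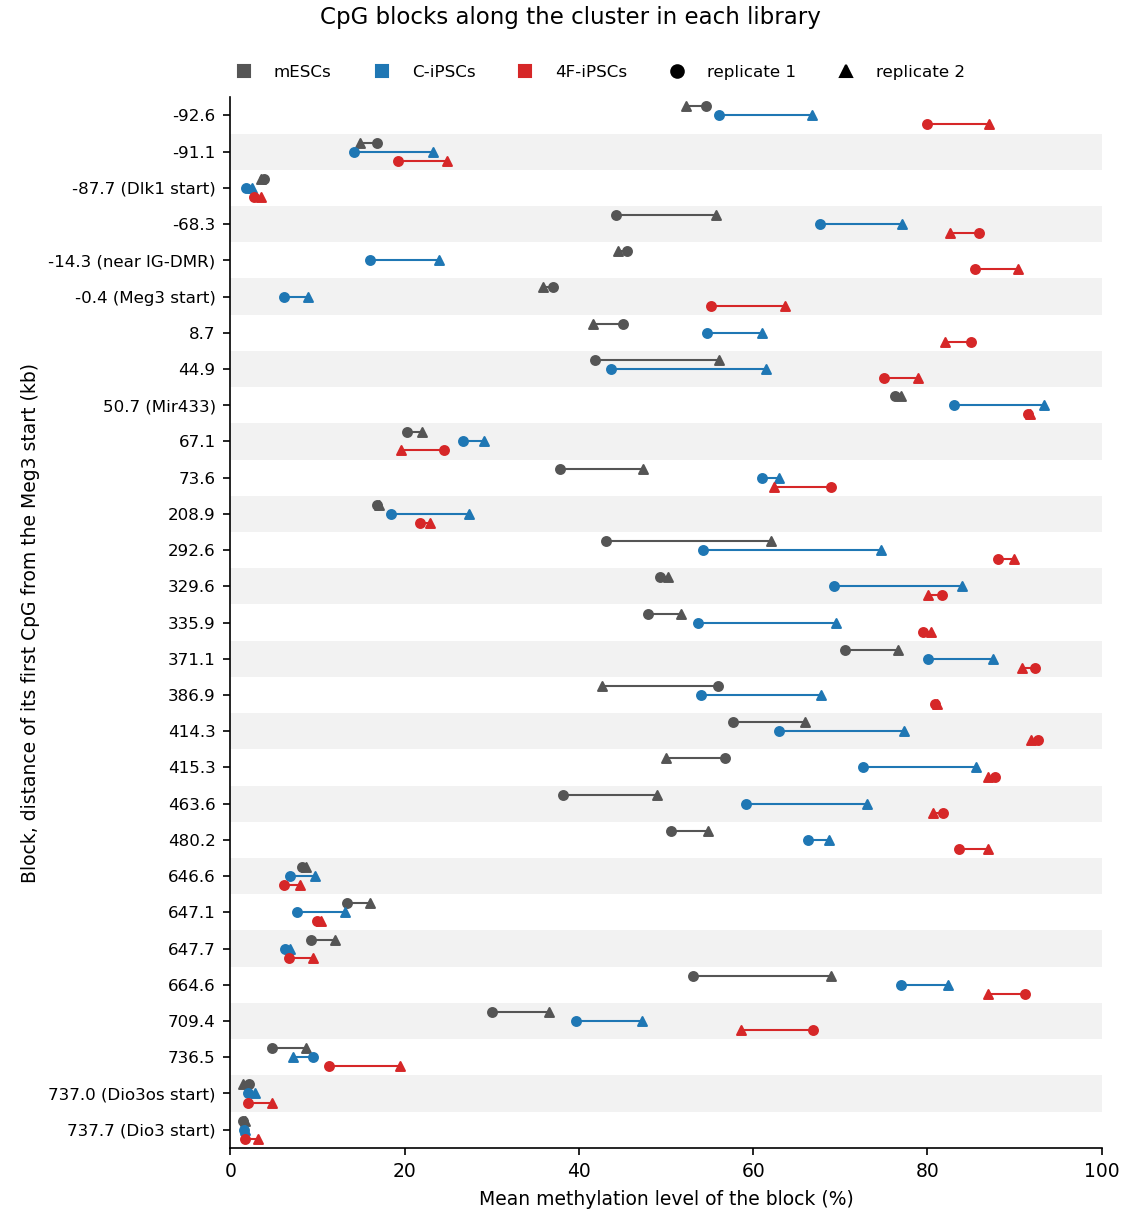
Mean methylation in percent (horizontal axis) of each of the 29 runs of at least 5 CpGs, with 1 point for each of the 6 libraries. The runs stand from top to bottom in their order along the cluster. At the IG-DMR block and the Meg3 promoter block the C-iPSC libraries lie left of the mESC libraries and the 4F-iPSC libraries right of them. In every library, 10 runs lie under 30%.

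Between Dlk1 and Meg3 lies the IG-DMR. The primers the study used for bisulfite sequencing of it matched 431 bp of the converted reference, chr12:109528098-109528528, which ends 12.5 kb before the Meg3 start and holds 32 CpGs and 5 TGCCGC hexamers. None of the 32 was a member, so the amplified segment itself was not measured here. The nearest run between Dlk1 and Meg3 was chr12:109526678-109526737, with 5 CpGs, 1361 bp before the amplicon, and is called the IG-DMR block. Its sequence is the first of those printed.

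At the IG-DMR block, methylation was 45.5 and 44.5% for mESCs, 16.1 and 23.9% for C-iPSCs and 85.5 and 90.4% for 4F-iPSCs, each over at least 359 reads. The groups did not overlap: mESCs were near the middle of the scale, C-iPSCs low and 4F-iPSCs high. As means these were 45% ± 0.690, 20.0% ± 5.53 and 87.9% ± 3.49 (SD, n = 2 libraries). Levels fell by 25 points from mESCs to C-iPSCs (limma, 95% interval -40.0 to -9.94, adjusted p = 0.00583) and rose by 43.0 points from mESCs to 4F-iPSCs (27.9 to 58.0, adjusted p = 1.53e-07). Between the iPSCs the difference was 67.9 points (52.9 to 83.0, adjusted p = 4.74e-15). With the error from this run alone, only the rise in 4F-iPSCs stayed called, and adjusted p was, in this order, 0.162, 0.0393 and 0.180 (unadjusted 0.00714, 0.00148 and 3.81e-04). The fall in C-iPSCs was not called without mESC replicate 1 (adjusted p = 0.111), 4F-iPSC replicate 1 (0.0516) or 4F-iPSC replicate 2 (0.0522), with sizes of -24.5, -25 and -25 points. Before this run, the 3 CpGs of the upstream run stood at 36.6 and 34.4%, 8.34 and 10.8%, and 57.0 and 65.9%. Their order was the same, with no overlap.

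Meg3, a non-coding RNA gene and the first of the maternally expressed transcripts, showed the same order at its start. The run of 8 CpGs there (chr12:109540591-109541071) stood at 37.0 and 35.8% for mESCs, 6.19 and 8.95% for C-iPSCs and 55.2 and 63.7% for 4F-iPSCs, each over at least 452 reads. The C-iPSC libraries were nearly unmethylated and the groups did not overlap. Means were 36.4% ± 0.822, 7.57% ± 1.95 and 59.4% ± 5.99 (SD, n = 2 libraries). Against mESCs, C-iPSCs fell by 28.9 points (limma, 95% interval -43.2 to -14.5, adjusted p = 9.35e-04) and 4F-iPSCs rose by 23 points (8.61 to 37.4, adjusted p = 0.00369). The difference between the iPSCs was 51.9 points (37.5 to 66.2, adjusted p = 1.76e-09). With the error from this run alone, adjusted p was 0.162, 0.0417 and 0.194 (unadjusted 0.00428, 0.00820 and 7.67e-04), so again only the rise in 4F-iPSCs stayed called. The rise in 4F-iPSCs was not called without mESC replicate 2 (22.4 points, adjusted p = 0.0578) or 4F-iPSC replicate 2 (18.8 points, adjusted p = 0.103). Of 15 members within 1 kb of a Meg3 start, 12 were called higher in 4F-iPSCs than C-iPSCs (background 1.33%), 1 higher in 4F-iPSCs than in mESCs (background 14.2%, so a share under it) and 5 lower in C-iPSCs than in mESCs (background 0.0363%). In the same place, 11 members lay within 1 kb of the start of the annotated gene Gm27596.

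This order, C-iPSCs under mESCs under 4F-iPSCs in every library, was noticed after the values were seen and is given as a count with no test. It held at 24 of the 479 members read at least 10 times in every library (5.01%), against 0.526% of all such CpGs, and at 2 of the 29 runs, against 0.685% of all runs. Another order, mESCs under C-iPSCs under 4F-iPSCs, held at 102 members (21.3%), near its background of 17.7%. The remaining orders were not counted. Of the 24, 3 lay beyond Mirg, and 21 lay from -41.3 to 0.811 kb of the Meg3 start, in 3 stretches. Those 3 stretches hold 27 members, all 5 CpGs called lower in C-iPSCs than in mESCs and 27 of the 39 called higher in 4F-iPSCs than C-iPSCs. They were picked for holding this order, so the calls in them follow in part from the same levels.

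**Figure D3:**
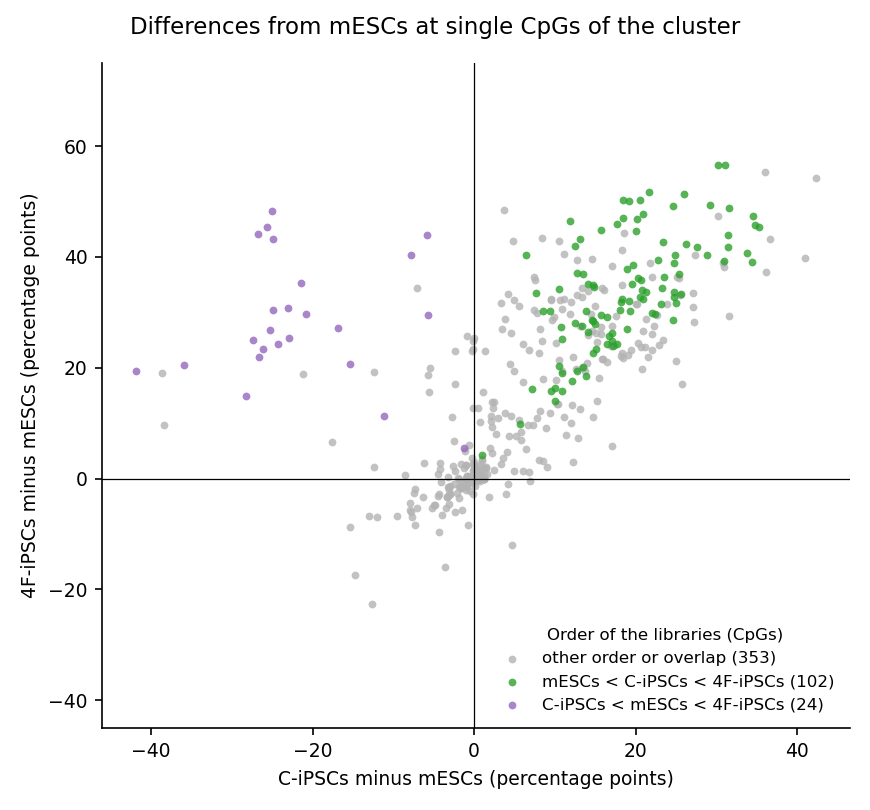
Difference from mESCs in percentage points at each of 479 members, C-iPSCs on the horizontal and 4F-iPSCs on the vertical axis, with the replicates summed. The 24 CpGs with C-iPSCs lowest and 4F-iPSCs highest in every library lie to the left of 0 and above 0, the 102 with mESCs lowest and 4F-iPSCs highest lie to the right, and both axes share the mESC libraries.

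Neighbouring stretches between Dlk1 and Rtl1, split after the values were seen where CpGs lay over 1 kb apart, differed in the order of the cell types. Starting 45.6 kb before Meg3, 11 CpGs stood at 50.2 and 56.6% for mESCs, 65.3 and 75.7% for C-iPSCs and 84.7 and 86.4% for 4F-iPSCs. At -41.3 kb, 7 CpGs stood at 22.2 and 28.5%, 16.6 and 17.5%, and 60.3 and 61.5%. At -35.3 kb, 5 CpGs stood at 58.9 and 58.0%, 65.6 and 79.5%, and 83.1 and 86.1%. All 3 stretches lie in introns of Gm34081. C-iPSCs were thus between mESCs and 4F-iPSCs at the first and last of these and lowest at the middle one. At -15.3 kb the stretch with the IG-DMR block, 8 CpGs, stood at 42.1 and 40.7%, 13.2 and 19%, and 74.8 and 81.2%. At the Meg3 start 10 CpGs stood at 37.0 and 39.1%, 7.68 and 9.87%, and 55.3 and 63.9%. In both of these C-iPSCs were again lowest, with no overlap. Nearer to Dlk1, 68.3 kb before the Meg3 start, a run of 6 CpGs stood at 44.3 and 55.8%, 67.7 and 77.1%, and 85.9 and 82.6%. It rose in 4F-iPSCs against mESCs by 34.2 points (limma adjusted p = 1.32e-07) and in C-iPSCs by 22.3 points (adjusted p = 0.00189), the latter lost without mESC replicate 1 (16.6 points, adjusted p = 0.0789).

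At the next 2 stretches, inside Meg3, the C-iPSC libraries did not both lie under mESCs. At 4.91 kb into Meg3, 4 CpGs stood at 36.6 and 38.5% for mESCs, 34.2 and 44.7% for C-iPSCs and 65.7 and 67.9% for 4F-iPSCs, so that C-iPSCs and mESCs overlapped. At 8.68 kb, 6 CpGs stood at 45 and 41.6%, 54.7 and 61.1%, and 85.0 and 82.1%, with C-iPSCs between the others. The run of 6 CpGs there was 40.2 points higher in 4F-iPSCs than in mESCs (adjusted p = 3.19e-08). It was also 25.7 points higher than in C-iPSCs (adjusted p = 0.00673), a call lost without 4F-iPSC replicate 1 (adjusted p = 0.184) or 4F-iPSC replicate 2 (0.327). At -40.6 kb in Gm34081, within the stretch that starts at -41.3 kb, the 4 CpGs of the printed sequence were read. They stood at 21.0 and 29%, 13.4 and 16.2%, and 59.0 and 66.5%. There the C-iPSC libraries were lowest and the 4F-iPSC libraries highest. In the fit of runs of at least 3 CpGs, the rise of 47.9 points from C-iPSCs to 4F-iPSCs was called (adjusted p = 8.27e-07). The change of -10.2 points from mESCs to C-iPSCs was not (adjusted p = 0.295), nor was that of -5.91 points at the other run of that stretch (0.603). In the same fit, 2 of the 3 runs in the stretch at -45.6 kb, in the same gene, were called higher in C-iPSCs than in mESCs (adjusted p = 0.0233 and 0.00693).

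**Figure D4:**
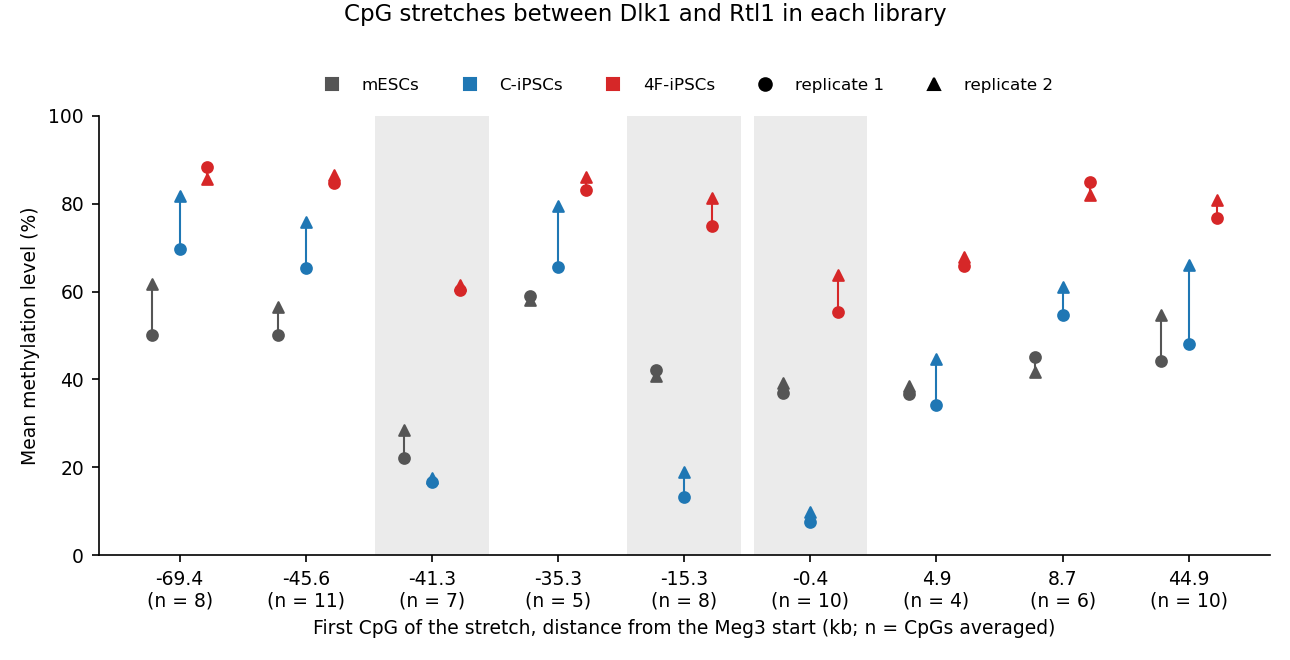
Mean methylation in percent (vertical axis) of stretches of member CpGs between Dlk1 and Rtl1, with 1 point for each of the 6 libraries. Shown are stretches with at least 3 CpGs read at least 10 times in every library. They are evenly spaced in order and labelled with the distance of the first CpG from the Meg3 start in kb. Shading marks the 3 stretches in which C-iPSCs lie under mESCs and mESCs under 4F-iPSCs. In those 3, C-iPSC means range from 7.68 to 19%, and the mESC means from 22.2 to 42.1%.

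Rtl1, a retrotransposon-derived gene needed in the placenta and overlapped by an antisense transcript that hosts microRNAs, was more methylated than Meg3. Its 20 members averaged 62.1 and 69.7% for mESCs, 79.6 and 86.4% for C-iPSCs and 91.2 and 91.1% for 4F-iPSCs, over the 19 read at least 10 times in every library. The order was mESCs, C-iPSCs, 4F-iPSCs, without overlap. By Fisher's exact test, 5 of the 20 were higher in 4F-iPSCs than in mESCs (background 14.2%) and 2 higher in C-iPSCs than in mESCs (background 2.87%). At the Mir433 hairpin, whose sequence is printed, the run of 5 CpGs stood at 76.3 and 77%, 83.1 and 93.4%, and 91.5 and 91.8%. Both kinds of iPSC exceeded mESCs there, and C-iPSC replicate 2 was above 4F-iPSCs. The rise of 11.6 points in C-iPSCs (limma adjusted p = 0.0355) was lost without mESC replicate 1 (adjusted p = 0.0584), C-iPSC replicate 2 (6.41 points, 0.483), 4F-iPSC replicate 1 (0.148) or 4F-iPSC replicate 2 (0.149), and with reads of the run pooled (0.0771). The rise of 15.0 points in 4F-iPSCs (adjusted p = 0.00223) was lost without 4F-iPSC replicate 1 (adjusted p = 0.0634) or 4F-iPSC replicate 2 (0.0859).

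MicroRNA genes fill the maternally expressed part of the cluster. Of 67 annotated hairpins in the window, 26 had a member within 1 kb. Mir1247 among them lies at the unmethylated start of Dio3os and is given with it. The other 25 share 43 members, of which the 37 read at least 10 times in every library averaged 58.8 and 66.7% for mESCs, 71.4 and 80.9% for C-iPSCs and 87.1 and 88.2% for 4F-iPSCs. The cell types were in that order without overlap. Of the 43, 11 were called higher in 4F-iPSCs than in mESCs, 3 higher in 4F-iPSCs than C-iPSCs and 2 higher in C-iPSCs than in mESCs, by Fisher's exact test. The backgrounds, given above, are 14.2, 1.33 and 2.87%, and the 2 CpGs lie near theirs.

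Around Meg3 and Rtl1, hairpins that share CpGs had the same values. Mir337, Mir3544, Mir540 and Mir665 share 11 members, and the 10 of them read at least 10 times in every library stood at 44.1 and 54.7% for mESCs, 48.1 and 66.0% for C-iPSCs and 76.8 and 80.8% for 4F-iPSCs. There C-iPSCs overlapped mESCs and 4F-iPSCs stood apart. The run of 8 CpGs among these was 28 points higher in 4F-iPSCs than in mESCs (limma adjusted p = 1.64e-04) and 24.4 points higher than in C-iPSCs (adjusted p = 0.0142), the latter lost without C-iPSC replicate 1 (15.4 points, adjusted p = 0.211), 4F-iPSC replicate 1 (0.148) or 4F-iPSC replicate 2 (0.506). Mir431, with 8 members, stood over 7 of them, by the same minimum, at 40.002 and 57.7%, 70.3 and 73.6%, and 87.0 and 85.6%. C-iPSCs were here nearer to 4F-iPSCs than to mESCs, with 5 of the 8 CpGs called higher in 4F-iPSCs (background 14.2%) and 2 in C-iPSCs (background 2.87%), each against mESCs. Mir127, a microRNA antisense to Rtl1, was already high, at 74.1 and 76.5%, 86.5 and 94.2%, and 95.2 and 96.2% over 7 CpGs.

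Other microRNA genes had few members. Mir539, Mir544, Gm44322 and Gm27379 share 2 CpGs, at 72.6 and 82.3% for mESCs, 85.5 and 90.1% for C-iPSCs and 92.3 and 93.0% for 4F-iPSCs. Mir409, Mir412, Mir369, Mir410 and Gm24321, near Mirg, share 2 at 62.0 and 78.6%, 87.1 and 86.6%, and 93.6 and 93.2%. At both, every iPSC library was above every mESC library. The 3 CpGs of Mir654, Mir376a, Mir376b and Gm25252 did not have 10 reads in every library. With replicates summed, they stood at 37.3% for mESCs, 33.1% for C-iPSCs and 78.6% for 4F-iPSCs, and all 3 were called higher in 4F-iPSCs than C-iPSCs by Fisher's exact test, but none by the quasi-binomial model. At Mir300, with 5 members that include the 3 CpGs of Mir654, no further CpG was called higher in 4F-iPSCs than C-iPSCs. Mir434, with 3 CpGs in Rtl1, was high everywhere, from 73.2% for mESC replicate 1 to 97.1% for 4F-iPSC replicate 2. At Mir3070b, with 1, that CpG was called higher in 4F-iPSCs than in mESCs. Mir3072, with 2, and Mir673, with 1, had no call.

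Rian, the host gene of box C/D small nucleolar RNAs, held 18 members, and the 16 read at least 10 times in every library stood at 37.0 and 42.7% for mESCs, 51.1 and 56.6% for C-iPSCs and 55.7 and 52.1% for 4F-iPSCs. Both kinds of iPSC lay above mESCs and overlapped each other, unlike in Meg3. Of its 2 runs, the run 73.6 kb after the Meg3 start stood at 37.8 and 47.3%, 61.1 and 63.0%, and 68.9 and 62.4%. It rose by 19.5 points in C-iPSCs (adjusted p = 0.0246) and by 23.1 points in 4F-iPSCs (adjusted p = 0.00307), each against mESCs. The first call was lost without mESC replicate 1 (14.7 points, adjusted p = 0.348), 4F-iPSC replicate 1 (0.102) or 4F-iPSC replicate 2 (0.0966), and the second without mESC replicate 1 (adjusted p = 0.105) or 4F-iPSC replicate 1 (0.105). The other run, 67.1 kb after the Meg3 start, stayed low, at 20.2 and 22.0%, 26.7 and 29.1%, and 24.5 and 19.6%, and was not called (lowest adjusted p 0.414).

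Mirg, a microRNA host gene, held 4 members, at 65.1 and 72.5% for mESCs, 78.0 and 83.9% for C-iPSCs and 89.8 and 90.0% for 4F-iPSCs. The cell types were in that order without overlap, and no CpG passed Fisher's rule. The 7 members between Rian and Mirg stood at 70.0 and 76.0%, 81.8 and 88.6%, and 93.1 and 89.0% over the 3 CpGs read at least 10 times in every library. Of the 7, only the 3 CpGs given with Mir654 were called higher in 4F-iPSCs than C-iPSCs, by Fisher's exact test alone.

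The long stretch from Mirg to Dio3os held 255 members and few genes. Over the 224 read at least 10 times in every library, the means were 40.4 and 45.1% for mESCs, 48.6 and 58.0% for C-iPSCs and 63.1 and 63.7% for 4F-iPSCs. Again mESCs were lowest and 4F-iPSCs highest, with no overlap. By Fisher's exact test 68 of its members were higher in 4F-iPSCs than in mESCs, 10 higher in C-iPSCs than in mESCs and 7 higher in 4F-iPSCs than C-iPSCs, against backgrounds of 14.2, 2.87 and 1.33%. The 10 of 255 are near their background. At the gene starts Gm26906, Gm27604 and Gm34667, with 1, 4 and 1 members in the whole window, no CpG was called.

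Runs of CpGs in this stretch differed in where C-iPSCs stood. At 414 kb from the Meg3 start, 5 CpGs stood at 57.7 and 65.9% for mESCs, 63.0 and 77.3% for C-iPSCs and 92.7 and 91.9% for 4F-iPSCs. At 415 kb, the next run of 6 CpGs stood at 56.8 and 49.99%, 72.6 and 85.5%, and 87.8 and 86.9%. C-iPSCs overlapped mESCs at the former and were apart from them, nearer to 4F-iPSCs, at the latter. The first run rose in 4F-iPSCs against mESCs by 30.5 points (limma adjusted p = 2.10e-07). It also rose by 22.1 points against C-iPSCs (adjusted p = 0.00357), a call lost without C-iPSC replicate 1 (adjusted p = 0.146), 4F-iPSC replicate 1 (0.146) or 4F-iPSC replicate 2 (0.323). Against mESCs the second rose by 34.0 points in 4F-iPSCs (adjusted p = 2.17e-08) and by 25.7 points in C-iPSCs (adjusted p = 1.55e-04). Only 1 other run, 7 CpGs at 330 kb, also kept its rise in C-iPSCs whichever library was left out, by 26.9 points (adjusted p = 2.18e-04). It stood at 49.3 and 50.2%, 69.3 and 84.0%, and 81.7 and 80.1%, where the 2 kinds of iPSC overlapped, and rose by 31.1 points in 4F-iPSCs (adjusted p = 1.31e-06).

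The run at 293 kb stood at 43.1 and 62.1% for mESCs, 54.2 and 74.6% for C-iPSCs and 88.1 and 89.9% for 4F-iPSCs, and the run at 387 kb at 55.9 and 42.7%, 54.0 and 67.8%, and 80.9 and 81.04%. In both runs C-iPSCs overlapped mESCs, and 4F-iPSCs rose against mESCs, by 36.4 points (limma adjusted p = 2.53e-08) and 31.7 points (5.56e-06). Their rises against C-iPSCs were 24.6 points (adjusted p = 0.00339) and 20.1 points (0.0356). The first of these was lost without C-iPSC replicate 1 (14.4 points, adjusted p = 0.255), 4F-iPSC replicate 1 (0.114) or 4F-iPSC replicate 2 (0.369). The second was lost without C-iPSC replicate 1 (13.2 points, adjusted p = 0.302), 4F-iPSC replicate 1 (0.239) or 4F-iPSC replicate 2 (0.539), with reads of the run pooled (0.0504), and among runs of at least 3 CpGs (0.0703).

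In Gm34667, a non-coding gene, the run at 464 kb stood at 38.2 and 49.0% for mESCs, 59.2 and 73.0% for C-iPSCs and 81.8 and 80.6% for 4F-iPSCs, and the run at 480 kb at 50.6 and 54.9%, 66.3 and 68.6%, and 83.6 and 86.9%. C-iPSCs lay between the others in both runs, without overlap. Against mESCs, 4F-iPSCs rose by 37.6 points (limma adjusted p = 8.80e-08) and 32.5 points (5.72e-07), and C-iPSCs by 22.5 points (0.00376) and 14.7 points (0.0478). The rise of 22.5 points was lost without mESC replicate 1 (adjusted p = 0.126) or C-iPSC replicate 2 (0.0707). That of 14.7 points was lost without mESC replicate 1 (adjusted p = 0.253), C-iPSC replicate 2 (0.0940), 4F-iPSC replicate 1 (0.159) or 4F-iPSC replicate 2 (0.165), on the arcsine scale (0.0843), with gaps of at most 100 bp (0.0611) and among runs of at least 3 CpGs (0.0585). At 480 kb 4F-iPSCs also rose by 17.8 points against C-iPSCs (adjusted p = 0.0462). That call was lost without C-iPSC replicate 1 (adjusted p = 0.115), 4F-iPSC replicate 1 (0.226) or 4F-iPSC replicate 2 (0.596), with reads of the run pooled (0.0797), with gaps of at most 100 bp (0.0893) and among runs of at least 3 CpGs (0.0783).

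At 665 kb a run stood at 53.1 and 68.9% for mESCs, 76.9 and 82.3% for C-iPSCs and 91.2 and 86.9% for 4F-iPSCs, with no overlap. Against mESCs, 4F-iPSCs rose by 28.1 points (limma adjusted p = 7.84e-07) and C-iPSCs by 18.6 points (0.00320), the latter lost without mESC replicate 1 (10.7 points, adjusted p = 0.171) or C-iPSC replicate 2 (0.0582). At 336 kb the levels were 47.9 and 51.7%, 53.6 and 69.5%, and 79.5 and 80.4%, and at 709 kb they were 30 and 36.6%, 39.7 and 47.2%, and 66.8 and 58.7%. In both runs the order was mESCs, C-iPSCs, 4F-iPSCs without overlap, and the rise from mESCs to 4F-iPSCs was called, by 30.2 points (limma adjusted p = 1.49e-05) and 29.4 points (4.51e-04). The call at 709 kb was lost without 4F-iPSC replicate 1 (adjusted p = 0.0581). The run at 209 kb was low, from 16.8% for mESC replicate 1 to 27.4% for C-iPSC replicate 2, and was not called.

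The start of the non-coding gene Gm34785 was low, with 44 members within 1 kb. The 3 runs at and beyond this start held 14, 14 and 22 CpGs. Their levels lay between 6.17 and 16.1% in every library at each run, and no run was called. Within 1 kb of a start of the non-coding gene 4930511J24Rik, in contrast, 7 CpGs were read at least 10 times in every library. They stood at 65.7 and 75.7%, 76.1 and 85.1%, and 92.7 and 90.4%. The run of 5 CpGs in this gene rose by 18.1 points in 4F-iPSCs against mESCs (limma adjusted p = 3.85e-04). Further into it, 4 CpGs stood at 75.6 and 71.5%, 62.7 and 76.8%, and 90.7 and 93.2%, where C-iPSCs overlapped mESCs.

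Dio3, which encodes the deiodinase that inactivates thyroid hormones, and its antisense gene Dio3os close the cluster. At the Dio3 start, 34 CpGs (chr12:110278695-110279285) averaged 1.41 and 1.68% for mESCs, 1.58 and 1.71% for C-iPSCs and 1.73 and 3.15% for 4F-iPSCs. At the Dio3os start, 48 CpGs averaged 2.13 and 1.49%, 2.02 and 2.80%, and 2.09 and 4.79%. Every library was nearly unmethylated at both, 4F-iPSC replicate 2 was highest, and neither run was called. The hairpin of Mir1247, with 82 members within 1 kb, had 0 calls in any comparison by Fisher's exact test. Further into the gene, 5 CpGs in Dio3os stood at 4.77 and 8.72%, 9.47 and 7.18%, and 11.3 and 19.4%. The cell types overlapped except for 4F-iPSCs, which rose by 8.63 points against mESCs (limma adjusted p = 6.00e-04) and 7.05 points against C-iPSCs (adjusted p = 0.0394). The former was lost without mESC replicate 1 (adjusted p = 0.124) or 4F-iPSC replicate 2 (4.56 points, adjusted p = 0.0779). The latter was lost without every library but 4F-iPSC replicate 1, from adjusted p = 0.0723 without mESC replicate 2 to 0.627 without 4F-iPSC replicate 2 (2.98 points), with 0.0882 without mESC replicate 1, 0.130 when C-iPSC replicate 1 was left out and 0.129 without C-iPSC replicate 2. It was also lost on the arcsine scale (adjusted p = 0.0904), and was 11.1 points without 4F-iPSC replicate 1.

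Imprinted promoters elsewhere were read beside the cluster, from a list of 13: H19, Peg3, Snrpn, Mest, Peg10, Kcnq1ot1, Plagl1, Airn, Nnat, Zrsr1, Nap1l5, Mcts2 and Nespas. All 13 had a run within 1 kb of a start. At Peg3, which encodes a zinc finger protein, the levels were 36.5 and 43.4% for mESCs, 6.07 and 9.94% for C-iPSCs and 56.2 and 63.9% for 4F-iPSCs. At Snrpn, a splicing protein gene, they were 33.8 and 35.2%, 5.78 and 1.33%, and 59.3 and 60.7%. These values lay close to those of the Meg3 promoter block, in the same order and without overlap. The order with C-iPSCs lowest and 4F-iPSCs highest held at 11 of the 13, all but Kcnq1ot1 and Nespas. In the limma fit, 10 were lower in C-iPSCs than in mESCs (background of runs 0.244%), 9 higher in 4F-iPSCs than in mESCs (54.8%) and 12 higher in 4F-iPSCs than C-iPSCs (8.24%). The 9 of 13 are not far from their background. With the error from each run alone, 0 of 43041 runs were lower in C-iPSCs than in mESCs, and 0 higher in 4F-iPSCs than C-iPSCs. That ended the 10 and the 12 calls. The order seen at 2 runs of the cluster was therefore not particular to it.

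**Figure D5:**
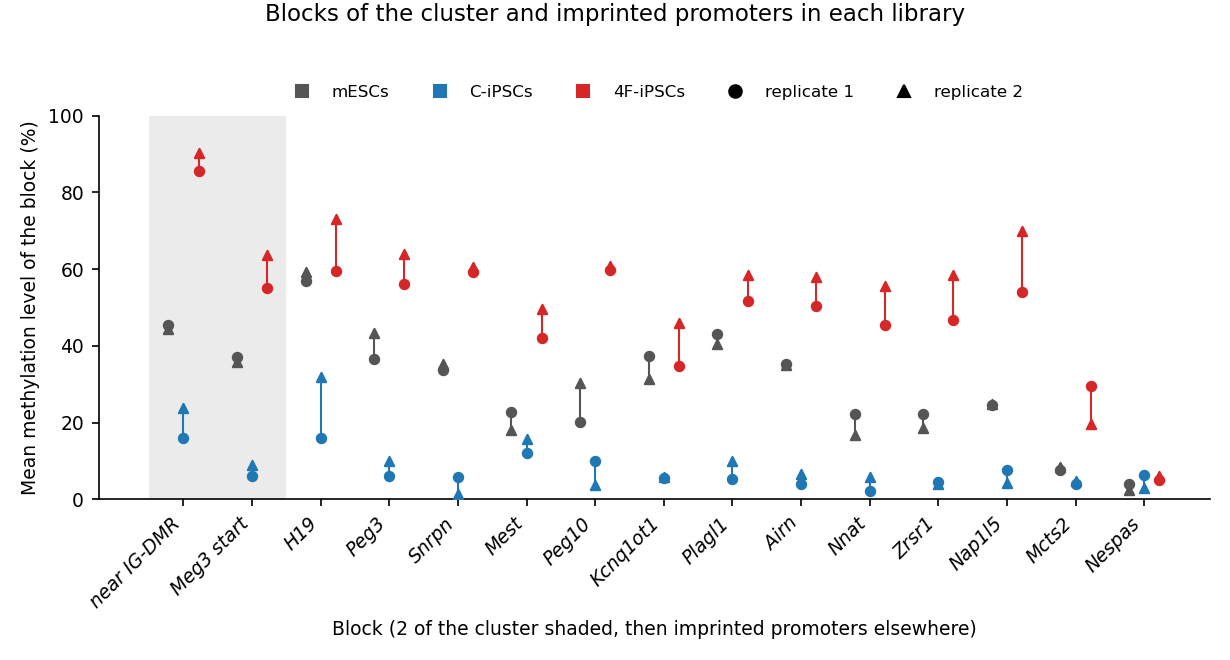
Mean methylation in percent (vertical axis) of the IG-DMR block, the Meg3 promoter block and runs at 13 imprinted promoters elsewhere, with 1 point for each of the 6 libraries. C-iPSC points lie lowest and 4F-iPSC points highest at both cluster runs and at 11 of the 13 promoters.

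Measures of the reads themselves varied little at the members, with some exceptions. The median difference between strands was between 3.21 and 4.30 points in a library. At 6 members the strands differed by over 50 points in a library, and at 5 of them 1 strand was at 2.5% or less in all 6. Among these members, 109505675 and 109546064 lie in the stretches at -35.3 and 4.91 kb from the Meg3 start. The runs at 293 and 330 kb hold 109833604 and 109870701. The part of such CpGs in the levels given for these stretches and runs was not tested. CpGs inside CCGG sites, where fragments end, read higher than others in unmethylated islands. At Dio3os and Dio3, 17 such CpGs had median levels of 8.57% for mESCs, 9.30% for C-iPSCs and 15.4% for 4F-iPSCs, against 0.602% or less for 75 others. At Dlk1 the 7 such CpGs had medians of 13.6, 13.9 and 14.1%, against 1.59% or less for 36 others. The 2 members at Dio3os and Dio3 that were not under 30%, 110275896 and 110276014, lie in CCGG sites and were left out of these medians. The part of such CpGs in the small 4F-iPSC difference at Dio3os was not tested.

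Promoters that pluripotent cells keep unmethylated and fibroblasts methylate were read to check the labels. Nanog, with 2 CpGs, was at 12.1% or less in every library. Pou5f1, with 5, stood at 5.85 and 8.70% for mESCs, 5.76 and 6.71% for C-iPSCs and 11.7 and 22.5% for 4F-iPSCs, and Zfp42, with 7, at 4.13 and 6.33%, 6.92 and 5.95%, and 7.79 and 15.7%. All were low, and 4F-iPSC replicate 2 was highest at Pou5f1 and Zfp42, as it was at the starts of Dio3 and Dio3os. Dppa3 and Tdgf1 had no CpG that could be read. The part of this library's higher levels there in the cluster's values was not tested.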

How the data were processed

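Bisulfite reads at CpGs were measured in 6 libraries of 3 cell types. The authors aligned read pairs to mm10 with BSMAP 2.90 and called cytosines with MOABS; the deposited files give at each CpG the count of reads and of methylated reads, both strands together, with no scaling. The fraction the authors deposited beside each count served only as a check, since it is the same ratio rounded. A level here is methylated reads over reads in percent. The cluster was cut by position. The main Fisher, quasi-binomial and limma tests ran over the whole genome before the cluster was printed. Fisher's exact test with other read minimums or a library left out, and the CpG test with a replicate block, ran on the window alone. Members and lists were chosen with earlier results of these data known.

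Genes came from GENCODE vM21, sequences from the RefSeq copy of GRCm38, whose bases were CG at every chromosome 12 CpG of the files. Named were Dlk1, Meg3, Rtl1, Rian, Mirg and Dio3, other genes with a member within 1 kb of a start, microRNA genes with a member within 1 kb of a hairpin, every run of at least 5 CpGs, and the 3 called CpGs with the largest difference in each comparison. Fisher's exact test and the quasi-binomial model ran in Python 3.11.15 (numpy 2.4.6, pandas 2.3.3, scipy 1.17.1, numba 0.67.0), and limma 3.58.1 in R 4.3.3 on run levels in percent with a trend in the variance and Benjamini-Hochberg adjustment. Its prior had unlimited degrees of freedom, so the trend alone set the error of a run. Code was tested on simulated data. Intervals are limma's at 95%. Alternatives were other read minimums (5, 20), differences (0.2, 0.5), tests, run definitions and scales, and leaving out each library. The error from each run alone was added after seeing the data.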

Additional observations from a re-analysis of the deposited data

Results flagged for a closer look

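At 2 runs of CpGs, the IG-DMR block and the Meg3 promoter block, the 2 kinds of iPSC departed from mESCs in opposite directions: every C-iPSC library lay under every mESC library and every 4F-iPSC library above. The difference between 4F-iPSCs and C-iPSCs, tested directly with limma, was 67.9 percentage points at the IG-DMR block and 51.9 percentage points at the Meg3 promoter block. Both kept their call whichever library was left out. Neither kept it with the error taken from the run alone (adjusted p = 0.180 and 0.194), an alternative chosen after seeing the data. The cause was not tested.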

How the results depend on the processing

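No called run, nor the cluster mean, changed direction under the alternatives run for it, and 2 runs had no value with a 100 bp gap. All runs of the genome, with those not called and the promoters elsewhere, were refitted with the error from each run alone, which leaves differences as they are. Beyond that, the directions of runs not called, single CpGs, stretches, gene means and the promoters elsewhere were not followed under the alternatives. At the IG-DMR and Meg3 promoter blocks 30 of 30 calls held under the other scale, level, gap, run length and replicate block (highest adjusted p 0.0148), and 31 of 36 with a library left out. Over all runs these alternatives other than leaving out a library kept 20 of 20 calls higher in 4F-iPSCs than in mESCs, 6 of 8 higher and 2 of 2 lower in C-iPSCs than in mESCs, and 7 of 10 higher in 4F-iPSCs than C-iPSCs. Whichever library was left out, 15, 2, 1 and 2 of these stayed called. With the error from each run alone, an alternative chosen after seeing the data, differences stay as they are and calls weaken. Runs higher in 4F-iPSCs than in mESCs were then 10 of 29, a share near the background of 32%. Runs higher or lower in C-iPSCs than in mESCs, or higher in 4F-iPSCs than C-iPSCs, were 0, 0 and 0. Weaker at the IG-DMR block were the -25 points of C-iPSCs against mESCs (adjusted p = 0.162) and the 67.9 points of 4F-iPSCs against C-iPSCs (0.180), and at the Meg3 promoter block the -28.9 (0.162) and 51.9 points (0.194). Leaving out a library, the fall in C-iPSCs at the IG-DMR block ranged from -28.9 to -21.1 points and the rise in 4F-iPSCs at the Meg3 promoter block from 18.8 to 27.2. CpGs higher in C-iPSCs than in mESCs then ranged from 8 to 34 and lower from 3 to 6, higher in 4F-iPSCs than C-iPSCs from 28 to 67, and lower in 4F-iPSCs than in mESCs from 0 to 1. Runs higher in C-iPSCs than in mESCs ranged from 2 to 15, lower from 1 to 2, and higher in 4F-iPSCs than C-iPSCs from 2 to 14. With a difference above 0.2, CpGs higher and lower in C-iPSCs than in mESCs were 83 and 22, in 4F-iPSCs than in mESCs 246 and 1, and higher in 4F-iPSCs than C-iPSCs 109; above 0.5 they were 2 and 0, 14, and 16, since the rule admits fewer. The quasi-binomial model called 6 higher in C-iPSCs than in mESCs. Runs of at least 3 CpGs, of which the window holds 62, gave 25 and 52 higher in C-iPSCs and 4F-iPSCs than in mESCs. They gave 16 higher in 4F-iPSCs than C-iPSCs. No share over the genome stands beside the counts with other differences, with at least 3 CpGs or with a library left out. Those counts are therefore no result about the cluster. The labels pair replicates by number only. With a replicate block, the CpG counts were unchanged (15 and 5, 107 and 0, 39 and 0), and runs were 10 higher and 2 lower, 20 and 0, and 12 and 0. Over the genome, runs higher in 4F-iPSCs than C-iPSCs then numbered 7035 of 43041 in place of 3548, so the background of the 12 is larger than that of the 10, while runs higher than in mESCs numbered 16110 for C-iPSCs and 23996 for 4F-iPSCs. Deviations of equal numbers correlated across 43041 runs at 0.309, -0.298 and -0.170. Beyond these, the cause of each change was not tested. With 2 libraries a cell type, no library's departure can be told from spread, and 10 reads give single CpGs wide limits.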
